A study of Mus musculus with 2 samples.

Results

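The gamma-delta T cell receptor genes and the neighbouring scavenger receptor genes Cd163l1 and 5830411N06Rik were examined in white blood cells from behind the mouse retina. The 10 listed genes, of 32285 in the files, were Trdc, Trdv4, Trdv2-2, Trgv2, Tcrg-C1, Tcrg-C2, Tcrg-C4, Tcrg-V6, Cd163l1 and 5830411N06Rik. All 10 had UMIs (unique molecular identifiers, each marking 1 captured RNA molecule) in both libraries. There were 2 single-cell libraries, 1 per group: one from mice of genotype IL-17RA CKO (KO, a conditional knockout of the receptor for interleukin-17A) and one from mice of genotype IL-17ra fl (flox). Mice of both groups were injected intraperitoneally with NaIO3 at 20 mg/kg, a salt used to injure the retinal pigment epithelium (RPE). Viable cells carrying CD45, the common surface protein of white blood cells, were sorted from RPE and choroid and read with a 3′ kit. The sources used here do not give the Cre driver, the cells it acts in, the age and number of the mice, or whether flox mice carried a Cre. With 1 library per group no difference between KO and flox has a replicate check, and no test was made. The 95% intervals in parentheses cover counting error only.

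Most T cells carry a receptor of an alpha and a beta chain, while gamma-delta T cells carry a gamma and a delta chain. Each chain is assembled in the developing cell from variable (V), joining (J) and constant (C) segments. In the mouse gamma locus each group of V segments joins the J and C segment of its own cassette. Tcrg-V6 belongs to the cassette of Tcrg-C1, Trgv2 to that of Tcrg-C2, and Tcrg-V1 to that of Tcrg-C4. On the delta side Trdv4 and Trdv2-2 are V segments and Trdc is the constant gene. The chains made with Tcrg-V6 and Trdv4 pair in a receptor of gamma-delta T cells that arise in the fetus, settle in barrier tissues and make interleukin-17A. Cd163l1 (also named Scart1) and 5830411N06Rik (also named Scart2) encode surface proteins of the scavenger receptor cysteine-rich family, which have been described on gamma-delta T cells that make interleukin-17.

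The segments on which the results turn differ in how well a short read tells them apart, so their sequences are given here. All are 60-base stretches of the sense strand from GENCODE vM21 transcripts (GRCm38, the assembly of mm10). For the V segments the stretch is the end of the coding exon, and capitals mark the codon of the conserved cysteine in front of the junction. They lie at chr13:19190870-19190929 (Tcrg-V6, plus strand), chr14:54075456-54075515 (Trdv4, plus), chr13:19336573-19336632 (Trgv2, minus) and chr13:19340395-19340454 (Tcrg-V1, plus).
Tcrg-V6: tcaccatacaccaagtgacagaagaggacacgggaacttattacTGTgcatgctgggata
Trdv4: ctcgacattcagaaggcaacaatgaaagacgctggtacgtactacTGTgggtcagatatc
Trgv2: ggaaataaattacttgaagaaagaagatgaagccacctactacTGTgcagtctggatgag
Tcrg-V1: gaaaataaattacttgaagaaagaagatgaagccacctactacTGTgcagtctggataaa

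For the constant genes the stretch is the start of the first constant exon. Capitals mark bases of Tcrg-C1 and Tcrg-C4 that differ between these 2 genes, and the base of Tcrg-C2 that differs from Tcrg-C1. The stretches lie at chr13:19214103-19214162 (Tcrg-C1, plus), chr13:19307492-19307551 (Tcrg-C2, minus) and chr13:19344558-19344617 (Tcrg-C4, plus).
Tcrg-C1: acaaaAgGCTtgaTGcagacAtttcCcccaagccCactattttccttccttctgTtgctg
Tcrg-C2: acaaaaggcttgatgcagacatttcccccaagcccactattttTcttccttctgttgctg
Tcrg-C4: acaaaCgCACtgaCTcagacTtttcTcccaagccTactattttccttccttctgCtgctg

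Over the whole first constant exon of 330 bases, Tcrg-C2 differed from Tcrg-C1 at 9 bases and Tcrg-C4 at 59. Of the 865 stretches of 60 bases in Tcrg-C1 transcripts, 103 were also found in Tcrg-C2 and 112 in Tcrg-C3, while Tcrg-C4 shared none. UMIs of Tcrg-C1 and Tcrg-C2 are therefore uncertain where counting could not separate the copies. Trgv2 shared 15 of 432 such stretches with Tcrg-V1 and 3 with Tcrg-V3, and Tcrg-V1 shared 48 of 315 with Tcrg-V3. Trdc (chr14:54142851-54148868, plus strand) overlaps the antisense gene Trdv5 by 207 bases, and the use of strand in counting is not stated. Cd163l1 (chr7:140218267-140231145) and 5830411N06Rik (chr7:140247284-140300736) lie next to each other on the plus strand and are protein-coding. A UMI of a V segment does not show that the segment was rearranged, and a 3′ read can miss the V segment that a cell uses.

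Kept cells (at least 1000 UMIs, under 10% mitochondrial UMIs) numbered 3982 in KO and 3420 in flox, with medians of 7714 and 8741 UMIs. The libraries shared 3 cell barcodes. Both mixed male and female cells: cells with Xist and no Y-linked UMI were 39.3% in KO and 65.7% in flox, and cells with only Y-linked UMIs 34.6% in KO and 15.7% in flox. The KO matrix holds called cells and was written by Cell Ranger 7.0.1, and the flox matrix holds all barcodes and was written by version 4. The part of genotype, sex and processing in any difference between the libraries cannot be told apart. Il17ra, the targeted gene, was at 123 CPM (UMIs per 1000000 UMIs of the cells named) in KO and 132 CPM in flox. A 3′ tag outside the deleted part checks nothing, and the deleted part is not known here.

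T cells were taken as cells with at least 2 UMIs of the receptor complex genes Cd3d, Cd3e and Cd3g together, which gave 1708 cells in KO and 1400 in flox. A gate asking for Trdc and for no Trac, Trbc1 or Trbc2 UMI, the constant genes of the alpha and beta chains, held only 2 KO and 7 flox cells. Of the 7 flox cells, 6 had Cd163l1 and Trdv4, 5 of these also had Tcrg-V6 and 3 had Il17a. The other T cells with Trdc, 104 in KO and 122 in flox, all had UMIs of at least 1 of these alpha and beta constant genes. T cells with at least 1 Trdc UMI, called Trdc+ T cells below, were therefore described together, a choice made after the data had been seen. They numbered 106 in KO and 129 in flox. Trdc itself had 1 UMI in 1 of 962 KO and 1 of 627 flox B cells, which should lack it, with median depths of 6460 and 6228 UMIs.

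Trdc+ T cells made up 2.66% (2.18 to 3.21) of KO and 3.77% (3.16 to 4.47) of flox cells, a KO minus flox difference of -1.11 percentage points (-1.94 to -0.306). The difference was -1.12 points (-2.32 to 0.133) in cells with Xist only and -1.21 points (-3.15 to 0.262) in cells with Y-linked UMIs only, and both of these intervals include 0. Over all kept cells, those with Cd163l1 carried most of the difference. Trdc+ T cells with Cd163l1 were 1.48% of KO and 2.34% of flox cells (-0.858 points, -1.51 to -0.235). Trdc+ T cells without Cd163l1 were 1.18% of KO and 1.43% of flox cells (-0.252 points, -0.794 to 0.267). In cells with Xist only the differences were -0.891 points (-1.87 to 0.144) with Cd163l1 and -0.229 points (-0.939 to 0.546) without. In cells with Y-linked UMIs only they were -0.692 points (-2.16 to 0.271) and -0.516 points (-2.06 to 0.552). Each of these intervals within a sex includes 0.

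Cd163l1 divided Trdc+ T cells into cells with many UMIs and cells with none. It was present in 59 of 106 KO cells and 80 of 129 flox cells. The positive cells had a median of 17 UMIs in KO (range 1 to 57) and 15 in flox (range 1 to 52). In B cells and monocytes the gene was rare, found in 12 of 962 KO and 3 of 627 flox B cells and in 3 of 605 KO and 14 of 704 flox monocytes. B cells of flox reached 11 UMIs in 1 cell and KO B cells had at most 1. Among kept cells outside all gates, 8 of 442 in KO and 8 of 488 in flox had Cd163l1, with 45 UMIs in KO and 63 in flox and up to 26 in a cell of either.

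Within Trdc+ T cells, the delta segment Trdv4 followed Cd163l1 almost cell by cell. It was found in 55 of 59 KO and 75 of 80 flox cells with Cd163l1 (93.2% and 93.8%), against 1 of 47 KO and 1 of 49 flox cells without it. Its level in cells with Cd163l1 was 1250 CPM in KO and 1280 CPM in flox, against 2.08 CPM in KO and 1.97 CPM in flox cells without Cd163l1. There were 0.473 Trdv4 UMIs per Trdc UMI in the cells with Cd163l1 in both KO (0.429 to 0.522) and flox (0.435 to 0.514). A cell with Cd163l1 had a median of 8 Trdv4 UMIs in KO (0 to 33) and 9 in flox (0 to 34), while no cell without Cd163l1 had more than 1.

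**Figure D1:**
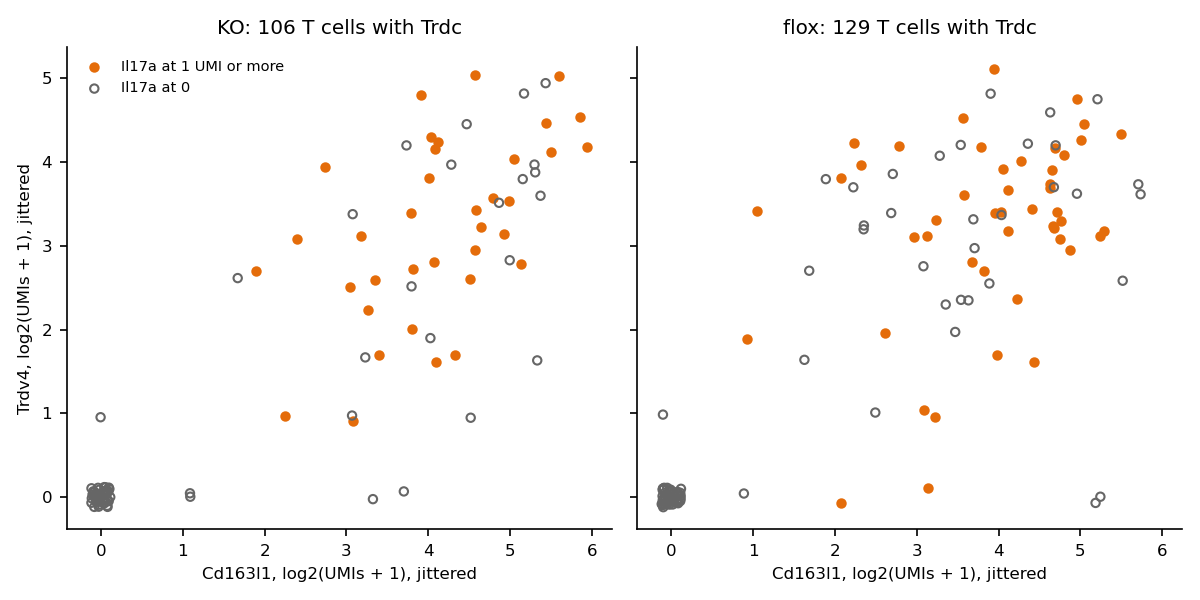
UMIs of Cd163l1 (x axis) and Trdv4 (y axis) in each of the 106 KO (left) and 129 flox (right) T cells with Trdc, as log2(UMIs + 1) with a small random shift; filled points have at least 1 Il17a UMI. Cells without Cd163l1 lie at the origin except for 1 cell per library with Trdv4, and all 36 KO and 47 flox cells with Il17a have Cd163l1.

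The gamma segment Tcrg-V6 showed the same split at lower counts. It was found in 48 of 59 KO and 65 of 80 flox cells with Cd163l1 (81.4% and 81.2%), against 2 of 47 KO and 0 of 49 flox cells without. Both segments together, Tcrg-V6 and Trdv4, were found in 47 KO and 63 flox Trdc+ T cells, and every one of these cells had Cd163l1. At least 1 of the 2 segments was found in 56 of 59 KO and 77 of 80 flox cells with Cd163l1 (94.9% and 96.2%). Of the cells without Cd163l1, 3 of 47 in KO and 1 of 49 in flox had either segment.

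Tcrg-C1, the constant gene of the Tcrg-V6 cassette, was in 56 of 59 KO and 78 of 80 flox cells with Cd163l1, against 17 of 47 KO and 16 of 49 flox cells without. Its level was 1080 CPM in KO and 1150 CPM in flox with Cd163l1, against 83.2 CPM in KO and 82.6 CPM in flox without. When each cell was assigned to the gamma constant gene with most UMIs, Tcrg-C1 led in 51 of 59 KO cells (86.4%, 75.0 to 94.0) and 70 of 80 flox cells with Cd163l1 (87.5%, 78.2 to 93.8). In cells without Cd163l1 no gamma constant gene led in most cells. Tcrg-C2 led in 11 of 47 KO and 8 of 49 flox cells, Tcrg-C4 in 8 KO and 15 flox cells, and Tcrg-C1 in 5 KO and 6 flox cells. Another 15 KO and 17 flox cells had none of the 3.

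Trgv2, Tcrg-C2 and Tcrg-C4 were found both with and without Cd163l1. Trgv2 was in 35 of 59 KO and 37 of 80 flox cells with Cd163l1, against 25 of 47 KO and 24 of 49 flox cells without. Tcrg-C2 was in 34 KO and 31 flox cells with Cd163l1 (57.6% and 38.8%), against 25 KO and 19 flox cells without (53.2% and 38.8%). Tcrg-C4 was in 36 KO and 57 flox cells with Cd163l1, against 24 KO and 25 flox cells without. UMIs of 2 or more gamma V segments were found in 36 of 59 KO and 45 of 80 flox cells with Cd163l1 (61.0% and 56.2%). Most cells with Cd163l1 thus had UMIs of more than 1 gamma V segment. Trgv2, Tcrg-V1 and Tcrg-V3 share stretches, whose part in these counts was not tested. Tcrg-V1 was in 9 KO and 8 flox cells with Cd163l1 (15.3% and 10.0%), against 14 KO and 11 flox cells without (29.8% and 22.4%). Tcrg-V5 was in 7 KO and 7 flox cells with Cd163l1 (11.9% and 8.75%), against 0 KO and 0 flox cells without, at 9 UMIs in all in each library. Trdv1 was in no cell with Cd163l1, and in 6 KO and 2 flox cells without.

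**Figure D2:**
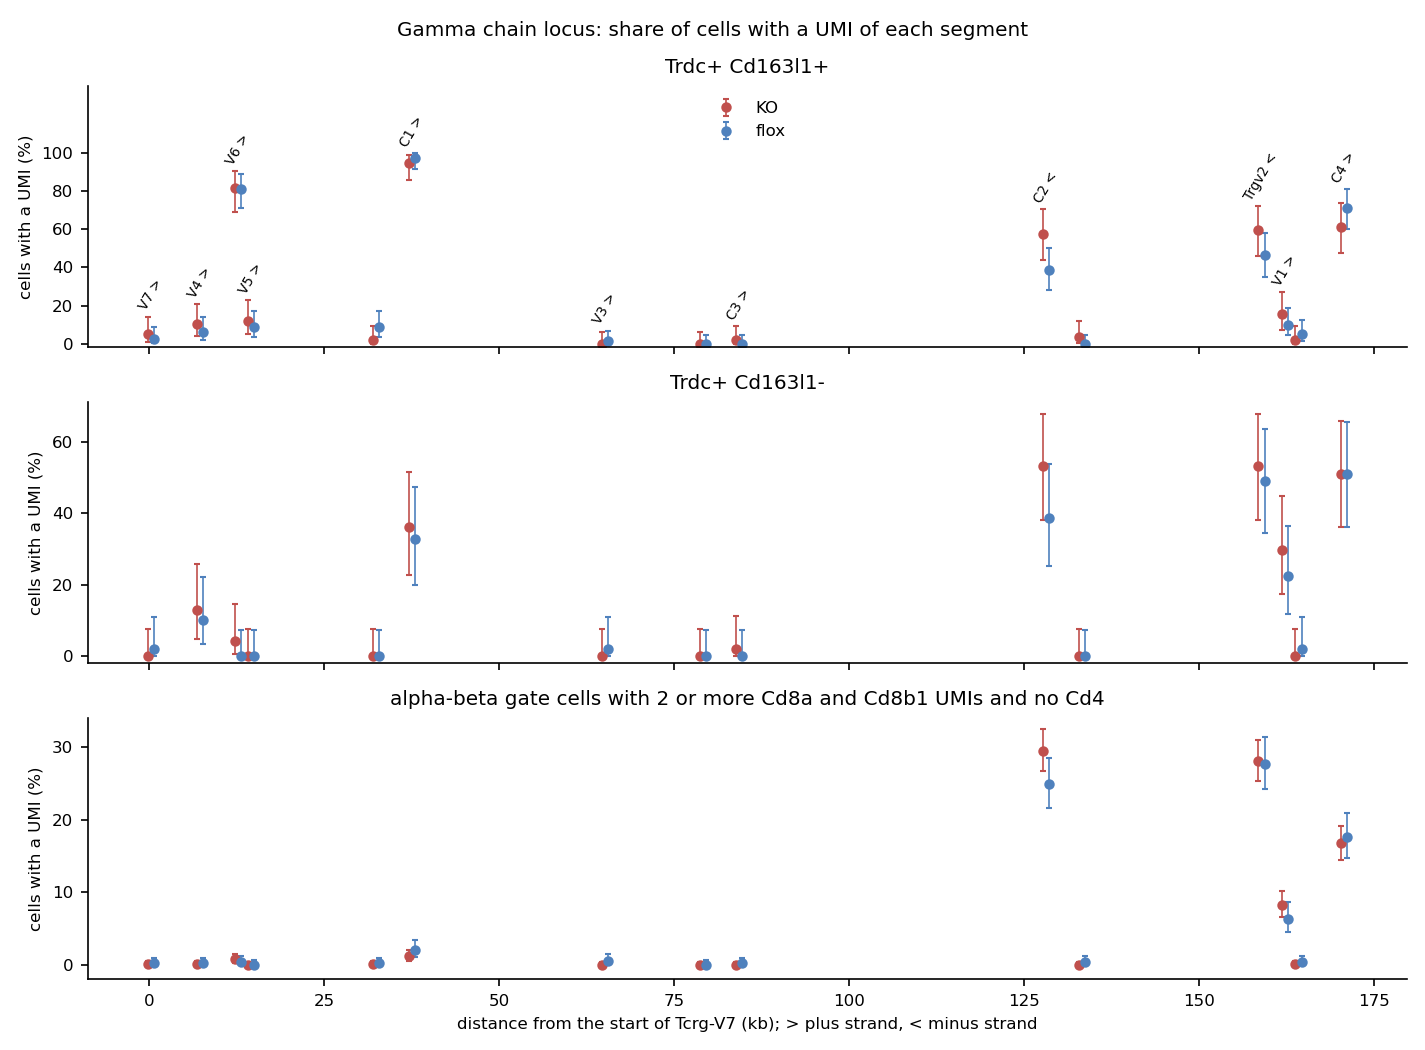
Share of cells with a UMI of each gamma segment (y axis, with 95% exact binomial intervals) by distance from the start of Tcrg-V7 (x axis, kb) in T cells with Trdc and Cd163l1 (top), T cells with Trdc and without Cd163l1 (middle) and alpha-beta T cells with CD8 genes (bottom). KO and flox points are shifted apart by 0.9 kb and the scale differs between panels. Tcrg-V6 and Tcrg-C1 stand highest in the top panel, while Tcrg-C2, Trgv2 and Tcrg-C4 have UMIs in all 3.

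Trdc+ T cells without Cd163l1 were heterogeneous. The median was 17 Trdc UMIs in KO and 19.5 in flox cells with Cd163l1, against 3 in both KO and flox cells without. Median total UMIs ran the other way, at 7027 in KO and 7496 in flox with Cd163l1, against 9846 in KO and 9903 in flox without. The 32 KO and 32 flox cells with at least 2 Trdc UMIs had Trgv2 in 23 KO and 20 flox cells, Tcrg-C4 in 22 and 23, and Tcrg-V1 in 13 and 10. Cd27, a receptor of the tumour necrosis factor family kept on gamma-delta T cells that make interferon-gamma, was in 25 KO and 23 flox cells of these. The 15 KO and 17 flox cells with a single Trdc UMI were less rich in gamma RNA, with Trac in 12 KO and 17 flox cells, Cd8a in 8 and 7, and Trgv2 in 2 and 4.

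Alpha-beta receptor RNA in Trdc+ T cells with Cd163l1 was mostly that of the beta constant genes. Trbc1 or Trbc2 was in 59 of 59 KO cells (median 9 UMIs) and 72 of 80 flox cells (median 7), against 98.6% of T cells with none of Trdc, Cd163l1 and 5830411N06Rik in both KO and flox (medians 14 and 17). Beta V segments were in 6 KO and 5 flox cells with Cd163l1, against 29.7% of KO and 38.1% of flox T cells with none. Trac was in 19 KO and 27 flox cells with Cd163l1 (32.2% and 33.8%), against 87.7% of KO and 89.4% of flox T cells with none. The shares lay closer together for the beta constant genes than for beta V segments or Trac.

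Among Trdc+ T cells, Il17a, the gene of interleukin-17A, was found only in those with Cd163l1. It was in 36 of 59 KO cells (61.0%, 47.4 to 73.5) and 47 of 80 flox cells (58.8%, 47.2 to 69.6) with Cd163l1, against 0 of 47 KO and 0 of 49 flox cells without. For cells without Cd163l1 the exact upper limit was 7.55% in KO and 7.25% in flox, a limit on cells with a UMI and not on cells that express the gene. In cells with both Tcrg-V6 and Trdv4, Il17a was in 32 of 47 KO cells (68.1%) and 38 of 63 flox cells (60.3%). In cells with neither segment it was in 0 of 47 KO and 1 of 51 flox cells. Il17a was in 1 of 962 KO and 0 of 627 flox B cells.

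Read from Il17a, 51 KO and 56 flox T cells had the cytokine's RNA. Cd163l1 was in 36 KO and 48 flox cells of these (70.6% and 85.7%), Trdv4 in 36 and 45, Tcrg-V6 in 32 and 40, and Tcrg-C1 in 49 and 49. Among all T cells with Tcrg-C1, 49 of 154 in KO and 49 of 161 in flox had Il17a (31.8% and 30.4%), against 2 of 1554 KO and 7 of 1239 flox T cells without Tcrg-C1. For T cells with Trgv2 the share was 27 of 398 in KO and 27 of 305 in flox. Trgv2 was in 52.9% of KO and 48.2% of flox T cells with Il17a. It was in 20.8% of KO and 19.4% of flox T cells with none of Trdc, Cd163l1 and 5830411N06Rik. The 15 KO and 8 flox T cells with Il17a and no Cd163l1 all lacked Trdc. They had Trac in 13 KO and 6 flox cells, Il23r in 13 and 4, and Tcrg-C1 in 13 and 2.

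Genes of the type 17 programme were high where Cd163l1 was present. Of 17 measured genes of the list, 16 were over 1.5-fold higher in both libraries in Trdc+ T cells with Cd163l1 than in those without, and 16.9% of 8509 genes measured passed the same mark. The list's median log2 difference was 2.77 in KO and 3.43 in flox with genes at 0 set to 3 counts, against 0.26 in KO and 0.24 in flox over all genes. Il23r, the receptor for the cytokine that sustains interleukin-17 production, was at 640 CPM in KO and 674 CPM in flox cells with Cd163l1, against 66.6 CPM in KO and 5.9 CPM in flox cells without. Maf, a transcription factor of these cells, was at 821 CPM in KO and 870 CPM in flox, against 168 CPM in KO and 120 CPM in flox. Il7r, the exception, had log2 differences of 0.47 in KO and 0.87 in flox.

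Of the Src-family kinases Blk, Lck and Fyn, Blk was higher with Cd163l1, Lck was lower and Fyn did not pass the mark. Blk was in 54 of 59 KO and 67 of 80 flox cells with Cd163l1 (91.5% and 83.8%), against 2 of 47 KO and 0 of 49 flox cells without. Lck, the kinase that starts receptor signalling in most T cells, was in 5 KO and 7 flox cells with Cd163l1 (8.47% and 8.75%), against 41 KO and 43 flox cells without (87.2% and 87.8%). Fyn was at 292 CPM in KO and 264 CPM in flox with Cd163l1, against 347 CPM in KO and 342 CPM in flox without. Lck stood in 89.0% of KO and 88.7% of flox T cells that had none of Trdc, Cd163l1 and 5830411N06Rik. Of the 10 receptor complex and signalling genes, Cd3e, Cd3g, Cd247 and Zap70 were over 1.5-fold higher with Cd163l1 in both libraries and Lck was lower. Cd3g was at 1750 CPM in KO and 1710 CPM in flox with Cd163l1, against 803 CPM in KO and 677 CPM in flox without. Of 10 other genes of the scavenger receptor cysteine-rich family, 3 were measured. Cd5 and Cd6, which temper T cell receptor signals, were lower with Cd163l1 in both libraries. Lgals3bp, a secreted member, was higher, at 76.2 CPM in KO and 161 CPM in flox with Cd163l1, against 31.2 CPM in KO and 68.8 CPM in flox without.

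Genes of the type 1 programme stood the other way. Of 12 measured genes, 9 were over 1.5-fold lower with Cd163l1 in both libraries, against 7.0% of all genes measured. Ccl5, a chemokine of cytotoxic and memory cells, was at 1060 CPM in KO and 786 CPM in flox with Cd163l1, against 6030 CPM in KO and 6900 CPM in flox without. Xcl1, a chemokine that draws dendritic cells, was at 4.12 CPM in KO and 3.09 CPM in flox, against 144 CPM in KO and 385 CPM in flox. Klrk1, Gzma and Gzmb did not pass the mark in both libraries. The NK marker list summed to 475 CPM in KO and 122 CPM in flox cells with Cd163l1 (6 and 4 of 7 genes with a UMI). In cells without Cd163l1 it summed to 811 CPM in KO and 631 CPM in flox (7 and 6 of 7). Gzma and Eomes are on both this list and the type 1 list. Gzma was at 340 CPM in KO and 50.9 CPM in flox with Cd163l1, and 333 CPM in KO and 124 CPM in flox without. The part of NK cells in the type 1 values was not tested. Alpha-beta T cell markers summed to 1650 CPM in KO and 1400 CPM in flox with Cd163l1. Without Cd163l1 they summed to 2250 CPM in KO and 1820 CPM in flox. Cells without Cd163l1 include the cells with a single Trdc UMI, most of which had Trac. The part of alpha-beta T cells in the type 1 values was not tested. Markers of innate lymphoid cells of type 2 summed to 150 CPM in KO and 361 CPM in flox with Cd163l1, and 60.3 CPM in KO and 53.1 CPM in flox without, with Il1rl1 and Il13 at 0 where Cd163l1 was present. The part of these cells in the type 17 values was not tested. Monocyte markers summed to 733 CPM in KO and 718 CPM in flox with Cd163l1, and 566 CPM in KO and 954 CPM in flox without. Ccr2, which is also on the type 17 list, made up most of this sum with Cd163l1 and little of it without. It was at 689 CPM in KO and 636 CPM in flox with Cd163l1, against 116 CPM in KO and 59.0 CPM in flox without. B cell markers summed to 204 CPM in KO and 40.1 CPM in flox with Cd163l1, and 133 CPM in KO and 66.9 CPM in flox without. Dendritic cell markers summed to 43.2 CPM in KO and 21.6 CPM in flox with Cd163l1, and 18.7 CPM in KO and 47.2 CPM in flox without. Mast cell and basophil markers were at 0 in both classes.

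The genes whose per-cell pattern was most like that of Cd163l1 included 3 receptor genes. By the lower of the 2 libraries' Pearson correlations of ln(1 + UMIs per 10000), Tcrg-C1 came first (0.85 in KO and 0.84 in flox, over 106 and 129 Trdc+ T cells). Trdv4 (0.89 in KO and 0.82 in flox), Blk (0.83 and 0.75), Tmem176a (0.73 and 0.77) and St6galnac3 (0.75 and 0.73) followed. Tcrg-V6 (0.75 and 0.73), Ccr2 (0.76 and 0.71) and Tmem176b (0.76 and 0.71) completed the 8. Trdc was at rank 17 (0.67 and 0.68). The cells of a library share its depth and free RNA, and these values are descriptions.

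5830411N06Rik, the neighbour of Cd163l1, was rare among T cells. It was found in 30 of 1708 KO and 17 of 1400 flox T cells, with medians of 3 and 2 UMIs and at most 21 in both. Trdc+ T cells with Cd163l1 had it in 0 of 59 in KO and 0 of 80 in flox (exact upper limits 6.06% and 4.51%). Those without Cd163l1 had it in 4 of 47 KO and 1 of 49 flox cells. At so low a share over all T cells, these zeros do not show that the 2 genes exclude each other. No B, monocyte or NK cell in either library had a UMI of 5830411N06Rik. T cells with 5830411N06Rik were 0.753% of KO and 0.497% of flox cells, a KO minus flox difference of 0.256 points (-0.117 to 0.627). The difference was 0.622 points (0.0905 to 1.28) in cells with Xist only and 0.0116 points (-1.28 to 0.863) in cells with Y-linked UMIs only.

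Most T cells with 5830411N06Rik had alpha-beta receptor RNA. Trac was in 24 of 30 KO and 16 of 17 flox cells. Beta constant UMIs were in all of them, but also in 59 of 59 KO and 72 of 80 flox Trdc+ T cells with Cd163l1. Alpha V segments were in 20.0% of KO and 17.6% of flox cells with 5830411N06Rik, and beta V segments in 16.7% and 41.2%. In T cells with none of Trdc, Cd163l1 and 5830411N06Rik, alpha V segments were in 33.7% of KO and 27.0% of flox cells. Beta V segments were there in 29.7% and 38.1%. Among the cells with 5830411N06Rik, Trdc was in 4 KO cells and 1 flox cell, Trdv4 in none and Tcrg-V6 in 1 KO cell. In all 4 KO cells with Trdc, Tcrg-C2 was the gamma constant gene with most UMIs and Trgv2 was present, with 24 Trgv2 and 23 Tcrg-C2 UMIs over the 4 cells. The 1 flox cell had Tcrg-C4 and Tcrg-C1. Among all T cells with 5830411N06Rik, Tcrg-C1 was in 15 KO and 6 flox cells, Trgv2 in 14 and 3, Tcrg-C2 in 13 and 4, and Tcrg-C4 in 8 and 4. Of the genes detected in at least 10% of T cells in each library, none reached a correlation of 0.3 with 5830411N06Rik in both libraries. Genes found in fewer T cells were not considered.

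In the alpha-beta gate (alpha-beta constant UMIs and no Trdc), 5830411N06Rik stood out in cells lacking both coreceptors. It was in 17 of 271 KO and 8 of 269 flox cells without Cd4, Cd8a or Cd8b1 (6.27% and 2.97%). It was in 7 of 985 KO and 5 of 613 flox cells with at least 2 CD8 gene UMIs and no Cd4, and in 1 of 272 KO and 1 of 331 flox cells with Cd4 and no CD8 gene.

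Many T cells with 5830411N06Rik had RNA of the type 17 list, but few had Il17a. Il23r was in 16 of 30 KO and 7 of 17 flox cells (53.3% and 41.2%), against 31 of 1560 KO and 24 of 1235 flox T cells with none of Trdc, Cd163l1 and 5830411N06Rik. Zbtb16, the transcription factor of innate-like T cells, was in 15 KO and 9 flox cells, against 63 KO and 106 flox cells with none. Il17a was in 4 of 30 KO cells (13.3%, 3.76 to 30.7) and 0 of 17 flox cells (exact upper limit 19.5%). Of the type 17 list, 13 of 18 genes were over 1.5-fold higher than in other T cells in both libraries, against 13.8% of 13372 genes measured. One of the 13, Il22, had 0 UMIs in the 17 flox cells and passed only through the 0.5 UMI added to each sum. Il17a, Il17f, Sox13, Blk and Icos did not pass. Gzma, the protease of cytotoxic granules, was at 2.89 CPM in KO and 10.2 CPM in flox cells with 5830411N06Rik, against 646 CPM in KO and 156 CPM in flox for other T cells. Gzma was 1 of 4 type 1 genes of 12 that were lower in both libraries, against 6.07% of all genes. Of the 10 receptor complex and signalling genes, 0 passed the mark in both libraries in either direction.

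**Figure D3:**
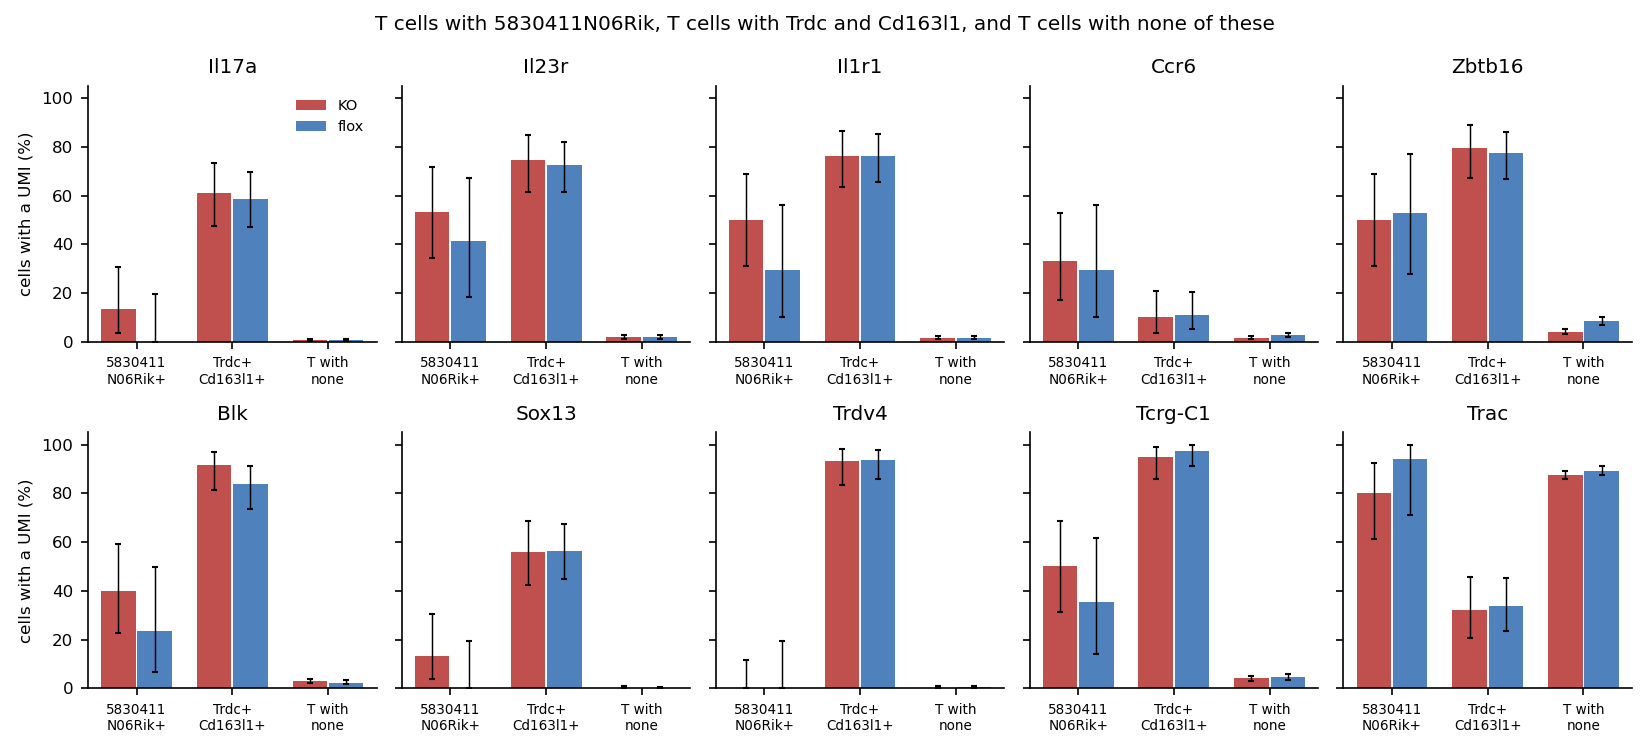
Share of cells with a UMI of each gene (y axis, with 95% exact binomial intervals) in T cells with 5830411N06Rik (30 KO, 17 flox), T cells with Trdc and Cd163l1 (59 KO, 80 flox) and T cells with none of these (1560 KO, 1235 flox). Il23r and Zbtb16 have UMIs in both receptor classes, whereas Trdv4 and most Il17a lie with Cd163l1 and Trac with 5830411N06Rik.

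The coreceptor separated these cells further. In the 23 KO and 12 flox cells with fewer than 2 CD8 gene UMIs, Il23r was in 15 KO and 7 flox cells and Tcrg-C1 in 14 and 6. All 4 KO cells with Il17a were among them. In the 7 KO and 5 flox cells with at least 2 CD8 gene UMIs, Il23r was in 1 KO and 0 flox cells.

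Cells with both scavenger receptors were 1 in KO and 1 in flox. They had 11 Cd163l1 UMIs in KO and 12 in flox, 2 UMIs of 5830411N06Rik each, no Trdc, and 15 and 14 Cd8b1 UMIs. They belonged to 17 KO and 21 flox T cells with Cd163l1 and no Trdc, whose median of 1 UMI is what B cells with Cd163l1 also had. Trdv4 and Tcrg-V6 were each found in 0 of these 17 KO and 0 of these 21 flox cells. With at least 2 Cd163l1 UMIs there were 5 such cells in KO and 8 in flox, of which 3 KO and 7 flox cells had Cd8b1 and 4 and 8 had Trac. Their highest count was 11 Cd163l1 UMIs in KO and 29 in flox.

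**Figure D4:**
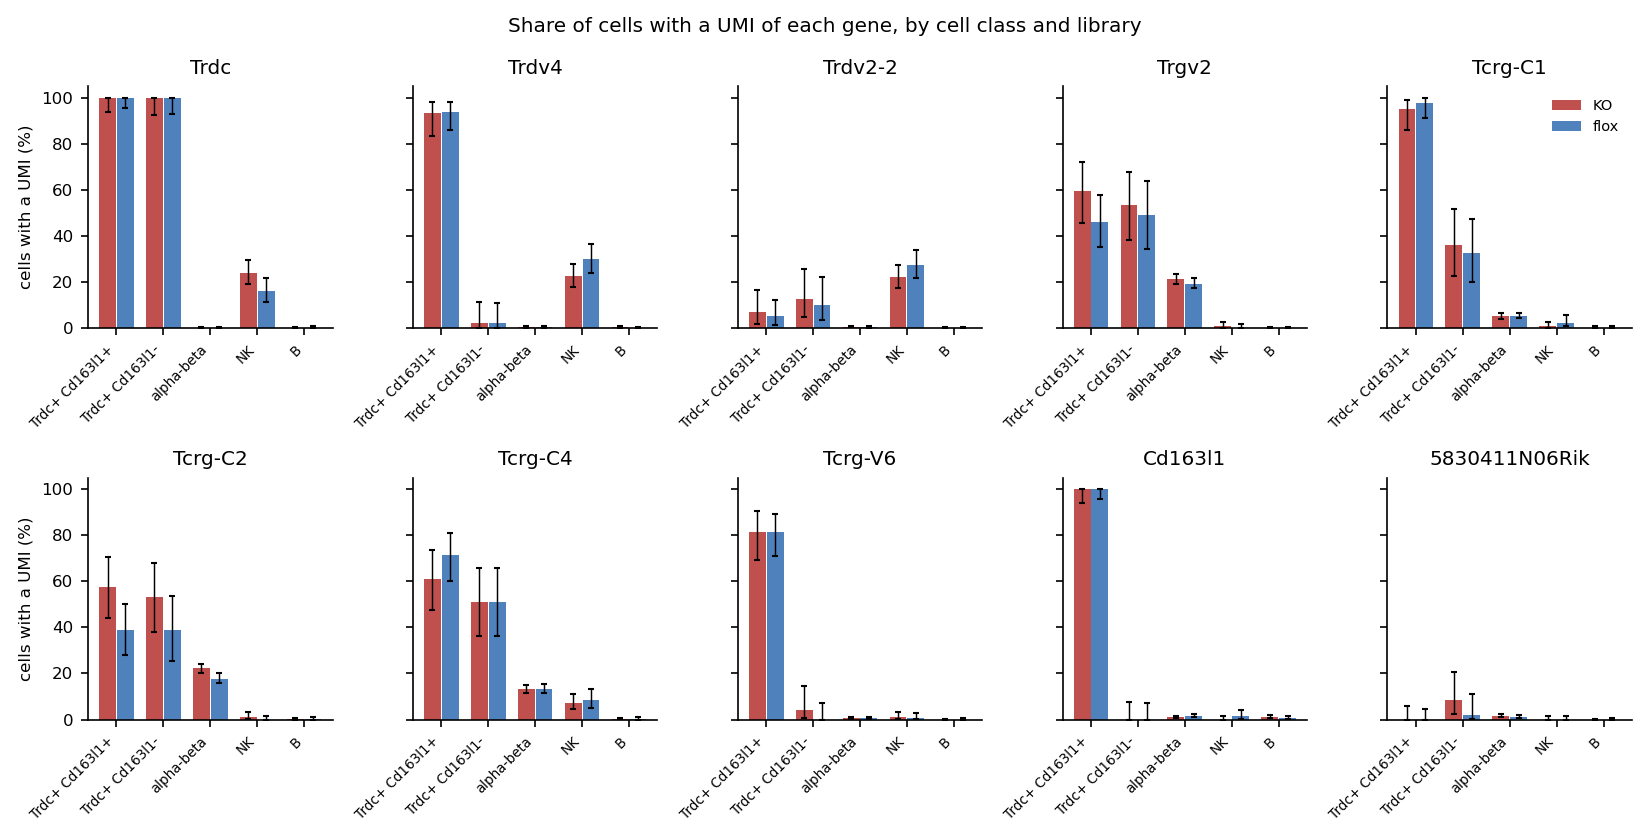
Share of cells with a UMI of each of the 10 genes (y axis, with 95% exact binomial intervals) in T cells with Trdc and Cd163l1, T cells with Trdc and without Cd163l1, alpha-beta T cells, NK cells and B cells of the KO (left bar) and flox (right bar) libraries. Trdc and Cd163l1 were used to form the first 2 classes, so their bars there are 0 or 100%. Trdv4, Tcrg-V6 and Tcrg-C1 are highest in the first class, and Trdv2-2 in NK cells.

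Natural killer (NK) cells, taken as cells with Ncr1 and no Cd3d or Cd3e, had delta locus RNA with little RNA of the gamma V segments Trgv2 and Tcrg-V6. They numbered 276 in KO and 211 in flox. Trdc was in 66 KO cells (23.9%, 19.0 to 29.4) and 34 flox cells (16.1%, 11.4 to 21.8), Trdv4 in 62 and 63 (22.5% and 29.9%), and Trdv2-2 in 61 and 58 (22.1% and 27.5%). Counts were low, at most 4 UMIs of Trdc in KO and 3 in flox. B cells had Trdv4 in 3 of 962 KO and 0 of 627 flox cells and Trdv2-2 in none. Trgv2 was in 2 KO and 0 flox NK cells, Tcrg-C1 in 2 and 5, Tcrg-C2 in 3 and 0, and Tcrg-V6 in 3 and 1. Tcrg-C4 stood higher, in 20 KO and 18 flox NK cells (7.25% and 8.53%). Among the NK cells with Trdc, Trgv2, Tcrg-V6, Tcrg-C1 and Tcrg-C2 were at 0 in both libraries, and Cd3g was in 0 of 66 KO and 2 of 34 flox cells.

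The makeup of delta RNA differed between NK cells and T cells. Trdv2-2 had 0.781 UMIs per Trdc UMI in KO NK cells (0.57 to 1.07) and 1.62 in flox NK cells (1.11 to 2.38). Trdc+ T cells with Cd163l1 had 0.00313 Trdv2-2 UMIs per Trdc UMI in KO and 0.00228 in flox, and those without Cd163l1 had 0.0192 in KO and 0.0175 in flox. Trdv4 had 0.844 UMIs per Trdc UMI (0.62 to 1.15) in KO and 2.02 (1.41 to 2.93) in flox NK cells. For Trdj1, a joining segment, the ratio was 0.25 in KO and 0.404 in flox NK cells, against 0.0156 in KO and 0.0148 in flox Trdc+ T cells with Cd163l1. Both T cell classes were selected for at least 1 Trdc UMI and the NK cells were not. That choice lowers the T cell ratios, and its part in the differences was not tested. Without Trdc as divisor, Trdv4 and Trdv2-2 had 81 and 75 UMIs in KO and 95 and 76 in flox NK cells. In Trdc+ T cells with Cd163l1 they had 605 and 4 in KO and 830 and 4 in flox. In those without Cd163l1 they had 1 and 6 in KO and 1 and 5 in flox. In flox barcodes of 100 UMIs or fewer, Trdc was at 63.8 CPM and Trdv2-2 at 0.934 CPM.

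**Figure D5:**
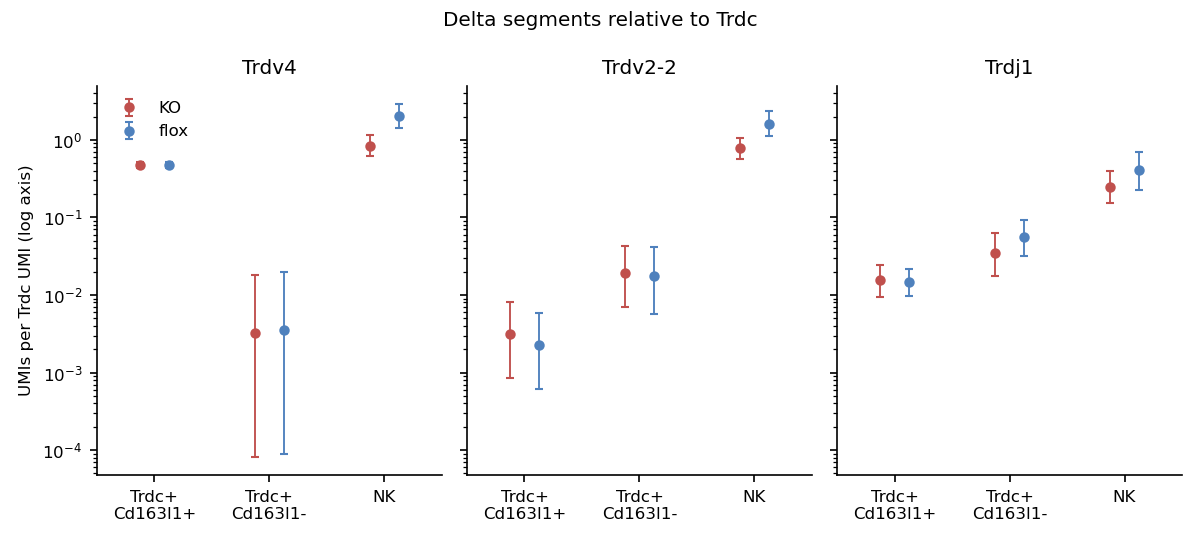
UMIs of Trdv4, Trdv2-2 and Trdj1 per UMI of Trdc (log axis) in T cells with Trdc and Cd163l1, T cells with Trdc and without Cd163l1, and NK cells, with 95% intervals for counting error, KO left and flox right in each pair. Trdv2-2 and Trdj1 lie higher in NK cells than in either T cell class, and Trdv4 lies lowest in T cells without Cd163l1. The T cell classes were selected for Trdc and the NK cells were not, which lowers the T cell ratios.

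Alpha-beta T cells with CD8 genes had RNA of the Tcrg-C2 cassette. Trgv2 was in 277 of 985 KO and 170 of 613 flox cells with CD8 genes (28.1% and 27.7%), against 8 of 272 KO and 5 of 331 flox cells with Cd4. Tcrg-C2 was in 291 KO and 153 flox cells with CD8 genes, against 9 KO and 6 flox cells with Cd4. Tcrg-C4 showed the same contrast, in 165 KO and 108 flox cells with CD8 genes, against 4 KO and 6 flox cells with Cd4. Tcrg-C1 did not: it was in 11 KO and 12 flox cells with CD8 genes, 2 KO and 3 flox cells with Cd4, and 64 KO and 49 flox cells with neither coreceptor (23.6% and 18.2%). Where Tcrg-C2 led in a cell of the alpha-beta gate, Trgv2 was also present in 206 of 258 KO and 133 of 160 flox cells.

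Between the libraries, 3 of the 9 genes measured in Trdc+ T cells were past 1.5-fold, all higher in KO, where 10.4% of the 8553 genes measured were higher, 7.8% lower and 18.2% past the mark in either direction. Only genes with 20 or more UMIs over KO and flox were measured, which Trdv2-2 did not reach. Tcrg-C2 was at 193 CPM in KO and 107 CPM in flox, a ratio of 1.80 (1.43 to 2.28). Trgv2, of the same cassette, was at 236 CPM in KO and 155 CPM in flox, a ratio of 1.52 (1.25 to 1.86). 5830411N06Rik had 20 UMIs in 4 KO cells and 2 UMIs in 1 flox cell, and the interval of the ratio ran from 2.91 to 106.0; 12 of the 20 UMIs were in 1 cell. Cd163l1 was at 1270 CPM in KO and 1190 CPM in flox (1.07, 0.99 to 1.16), and Trdv4 at 627 CPM in KO and 719 CPM in flox (0.872, 0.784 to 0.97). Il17a was at 541 CPM in KO and 455 CPM in flox (1.19, 1.05 to 1.35). The share of Trdc+ T cells with Il17a ran the other way, at 34.0% in KO and 36.4% in flox. Single cells held up to 62 Il17a UMIs in KO and 47 in flox, a spread between cells that the interval does not cover.

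The higher Tcrg-C2 in KO was also seen in each class. Its KO over flox ratio was 1.91 (1.41 to 2.58) in Trdc+ T cells with Cd163l1, 1.73 (1.19 to 2.55) in those without, and 1.57 (1.43 to 1.72) over all kept cells. In the alpha-beta gate it was 1.36, below the mark of 1.5. Tcrg-C1, part of whose sequence is that of Tcrg-C2, had a ratio of 0.856 (0.767 to 0.955) in Trdc+ T cells. By class, the Tcrg-C1 ratio was 0.936 (0.836 to 1.05) with Cd163l1 and 1.01 (0.637 to 1.59) without. In the alpha-beta gate Tcrg-C1 was higher in KO, as Tcrg-C2 was, with a ratio of 1.26 (1.03 to 1.55). The 2 matrices came from different software versions, whose part in the split of UMIs between these copies was not tested. In NK cells Trdc was the one listed gene of 4 measured past 1.5-fold, at 45.1 CPM in KO and 25.7 CPM in flox (1.76, 1.23 to 2.55), where 7.55% of genes were higher and 13.8% past the mark in either direction. Within flox NK cells Trdc was in 9.3% of 129 cells with Xist only and 29.6% of 27 cells with Y-linked UMIs only. The other flox NK cells, of 211 in all, were in neither group. The groups are small, and the part of sex in the Trdc values was not tested.

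In the alpha-beta gate 2 of the 6 listed genes measured were past 1.5-fold. There 5830411N06Rik was higher in KO, with 104 UMIs in KO and 55 in flox (ratio 1.61, 1.15 to 2.27), where 5.76% of genes were higher. Its UMIs lay in 26 KO cells (1.64%, 1.07 to 2.39) and 16 flox cells (1.27%, 0.729 to 2.06). The highest cell of each library held 21 of them. Cd163l1 was lower there, with 41 UMIs in KO and 107 in flox (ratio 0.326, 0.222 to 0.471), where 6.94% of genes were lower and 12.7% past the mark in either direction. Those UMIs lay in 17 KO and 21 flox cells, and 1 flox cell held 29 of them. Over all kept cells 5830411N06Rik (2.27, 1.65 to 3.15) and Tcrg-C2 were higher in KO and no listed gene was past the mark on the lower side, where 5.6% of genes were higher, 7.83% lower and 13.4% past it in either direction. The UMIs of 5830411N06Rik lay there in 33 KO and 17 flox cells, again with 21 in the highest cell of each library. In the gate with Trdc and no alpha-beta constant UMI, 2 KO cells were set against 7 flox cells. The 4 listed genes measured there, Trdc, Trdv4, Tcrg-C1 and Cd163l1, were all lower in KO, where 30.5% of the 266 genes measured were higher, 28.2% lower and 58.6% past the mark in either direction. Trdv4 and Cd163l1 had 0 UMIs in these KO cells, and no ratio is read from so few cells.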

How the data were processed

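The deposited matrices hold UMI counts per gene and cell barcode, with no normalization by the authors. They were written by Cell Ranger 7.0.1 (KO, 4096 barcodes, at least 500 UMIs each) and Cell Ranger 4 (flox, 1002803 barcodes, not filtered), per the file headers, on mm10, per the submitters' processing notes. Whether intronic reads were counted is not given in the sources used here. Kept barcodes held 35816512 UMIs in KO and 35081392 in flox. Scrublet, run through scanpy 1.11.5, marked 56 KO and 24 flox cells as doublets, which were kept, as the gates define cells by their UMIs alone.

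Cells were gated on raw UMIs and counts were summed per library and gate. B cells had at least 2 UMIs of Cd79a and Cd79b together, monocytes at least 2 of Lyz2 and 1 of Csf1r, and both had no Cd3 gene UMI. CPM divides the sum of a gene by all UMIs of the gate. Shares have exact Clopper-Pearson intervals, levels exact Poisson intervals, ratios conditional binomial intervals and differences of shares Newcombe intervals. A gene counted as past 1.5-fold on CPM after adding 0.5 UMI to each sum, with at least 20 UMIs in both groups together. Between classes of cells it also needed at least 5 in each library and had to pass in both. The fold step was tested on simulated counts. Cells were not used as replicates.

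The 10 genes and all gene lists were chosen with earlier results of these data known. Genes named beyond the 10 were those of the lists, other segments of the gamma and delta loci detected in the cells, and up to 8 genes correlated with each scavenger receptor at 0.3 or more in both libraries and detected in at least 10% of cells. The cells for that correlation, the classes of Trdc+ T cells and the subsets by Trdc count or coreceptor were chosen after the data had been seen. Alternatives changed the UMI, mitochondrial and gate minimums, the doublets, the sex of the cells, the depth by thinning, the fold and the minimum of UMIs. One gene of the type 17 list is counted in its totals and is not reported here by name.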

Additional observations from a re-analysis of the deposited data

How the results depend on the processing

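Of the values recomputed under an alternative, 524 moved by less than their counting interval or, for a count of genes, by under 1.5 times. Another 77 moved further, and 3 whose main interval excluded 0 changed sign. A change of sign was not counted where the main interval included 0. The share of kept cells with Trdc and no alpha-beta constant UMI was 0.0502% in KO and 0.205% in flox, and with Trac alone as the alpha-beta gene, an alternative chosen after seeing the data, it was 1.56% in KO and 2.16% in flox. With at least 2 Trdc UMIs, Cd163l1 was in 70.6% of flox Trdc+ T cells, and Trdv4 in 0.0% of KO cells without Cd163l1.

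In cells with Xist only, the gate without alpha-beta UMIs was 0.0% in KO, Trdv4 was in 0.0% of KO and 0.0% of flox Trdc+ T cells without Cd163l1, Tcrg-C1 led in 0.0% of KO cells without Cd163l1, and Tcrg-V6 was in 90.6% of KO cells with Cd163l1. The log2 ratio of KO over flox in Trdc+ T cells changed sign for Trdv4, to 0.09. In cells with Y-linked UMIs only, Trdc+ T cells were 1.96% in KO, and Cd163l1 was in 40.7% of them in KO and 47.1% in flox. Tcrg-V6 was then in 0.0% of KO cells without Cd163l1, Trdv4 in 11.1% of flox cells without it, and Tcrg-C1 led in 75.0% of flox cells with Cd163l1, 0.0% of those without, and 0.0% of the flox gate without alpha-beta UMIs. The log2 ratio changed sign for Trdc (0.02) and Tcrg-C1 (0.07). These subsets hold few cells, and the cause was not tested.

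Thinning removes UMIs and lowers shares by construction. At 2000 UMIs per cell, cells with Cd163l1 had Trdv4 in 79.7% of KO and 85.0% of flox, Tcrg-V6 in 50.8% and 43.8%, and Il17a in 45.8% and 42.5%. Those without had Trdv4 in 0.0% of both and Tcrg-V6 in 0.0% of KO. At 1000 UMIs, cells with Cd163l1 had Trdv4 in 61.0% of KO and 70.0% of flox, Tcrg-V6 in 33.9% and 36.2%, and Il17a in 45.8% and 35.0%. Those without had Trdv4 in 0.0% of both and Tcrg-V6 in 0.0% of KO, and Cd163l1 was in 46.5% of flox Trdc+ T cells. Genes past 1.5-fold between KO and flox were 1553 in Trdc+ T cells, 1670 in the alpha-beta gate and 1327 in NK cells. They were 453, 659 and 385 at 2-fold, and 582, 919 and 567 with at least 50 UMIs, which leaves fewer genes to test. No paired analysis was possible because each group has 1 library. Depth limits Tcrg-C4 and Tcrg-C2 as well: at 2000 UMIs per cell, Tcrg-C4 was in 28.8% of KO and 30.0% of flox cells with Cd163l1, and Tcrg-C2 in 25.4% and 17.5%.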
